A study of Caenorhabditis elegans with 12 samples.

Results

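The genes described here encode proteins of the cytosolic ribosome of the nematode Caenorhabditis elegans. They were taken as a given list of gene identifiers, which holds the small subunit genes rps-0 to rps-30 (31 genes) and 22 large subunit genes of the rpl family, 53 of the 46929 genes in the count table. All 53 were found, and all 53 were among the 14610 genes with enough counts to be tested. The names follow WormBase.

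A ribosome is built from a small subunit, which holds the messenger RNA and reads its codons, and a large subunit, which joins the amino acids. Each subunit is a core of ribosomal RNA with a shell of ribosomal proteins, most of which are present in a single copy per ribosome, so that cells need similar amounts of each. In many animals and in yeast, transcription and translation of these genes follow nutrient supply through the TOR kinase; in adult hermaphrodite worms the germline is a major site of ribosome production.

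Whole worms were compared on diets with one of 3 supplements made from thymus gland (desiccated thymus, an extract of the cytoplasm and one of the nuclei) and on a control diet, with 3 libraries per diet and 12 in all. Worms were raised on live bacteria to the last larval stage, and the supplemented diets began on the first day of adulthood. The labels used here name no strain, mutation, dose or age at collection. The libraries were made from poly(A)-selected total RNA, although the molecule field of the labels reads nuclear RNA, and the labels do not state whether replicates came from separate cultures. The p-values therefore refer to the spread among these libraries, part of which may be technical.

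Library totals lay between 23105256 and 33447280 counts. In 11 libraries 0.393% to 2.27% of them fell on ribosomal RNA genes, against 14.7% in desiccated thymus replicate 3. Markers of each tissue were detected, as whole worms require: in the 12 libraries none of the intestine (18), hypodermis (14), muscle (19), neuron (20), germline (28) or tested sperm markers (13) was at 0 in a whole group. Summed germline and oocyte markers ranged over 27400 to 28232 CPM (counts per 1e+06 of the scaled total) with desiccated thymus, 27014 to 28100 with the cytoplasmic extract, 26314 to 27283 with the nuclear extract and 28396 to 29915 in the control. Their part in the ribosomal protein values was not tested, and in whole worms fewer cells of a type and less RNA per cell cannot be told apart.

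Ribosomal protein genes were among the most abundant messages on every diet. Per length, as CPM per kilobase of exon, the 53 genes averaged 512 to 2024 over the 12 libraries with a median of 1287, against a median of 7.87 for all tested genes. They thus spanned a 3.96-fold range, and 44 of the 53 were among the 100 highest of the 14610 tested genes, with all 53 among the 500 highest. The 22 large subunit genes of the list lay closer together, from 959 to 1649 (a 1.72-fold range). All 22 were among the 100 highest, against 22 of the 31 small subunit genes. The list leaves out other large subunit genes, so this range describes the listed genes alone. Outside the list, rpl-11.1 and rpl-11.2 had 1295 and 137 in the control, and rpl-25.2 and rpl-25.1 had 1090 and 85.9. Exonic lengths differed too, at 448 to 1456 bases against 252 to 998 for the small subunit genes.

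The 5 highest genes per length were rps-25, rps-1, rps-5, rps-8 and rpl-3, and the 5 lowest were rps-28, rps-27, rps-14, rps-21 and rps-13. rps-25 (CELE_K02B2.5; IV:5947093-5947605, minus strand, WBcel235) encodes a small subunit protein. Its levels per length were 1784, 2263 and 1888 with desiccated thymus, 1919, 1807 and 2094 with the cytoplasmic extract, 2164, 2008 and 2047 with the nuclear extract, and 2455, 1982 and 1880 in the control. The 4 diets overlapped, and control replicate 1 was the highest library. The yeast counterpart of rps-28 (CELE_Y41D4B.5; IV:1659691-1659997, plus strand) lies near the exit of the messenger RNA channel. It had 75.4, 148 and 123 CPM with desiccated thymus, 129, 84.7 and 151 CPM with the cytoplasmic extract, 164, 136 and 150 CPM with the nuclear extract, and 168, 111 and 108 CPM in the control. Here too the diets overlapped, with desiccated thymus replicate 1 and cytoplasmic extract replicate 2 lowest. Even rps-28, the lowest of the list per length, was above 98.7% of all tested genes.

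The order of the genes by level was nearly the same on every diet. Across the 53 genes, Spearman's rho between the mean levels of any pair of diets was 0.989 to 0.997, given as a description: the genes are not independent, and gene length and composition are shared between the libraries. Whether neighbours in the order were separated was not tested. The coefficient of variation between the 3 libraries of a diet was taken per gene. Its median over the genes was 6.2% with desiccated thymus, 4.5% with the cytoplasmic extract, 2.81% with the nuclear extract and 7.47% in the control. A wider set held the 2017 tested genes with a mean CPM at or above that of the lowest of the 53, these 53 included. Its medians were 3.13%, 2.87%, 2.66% and 3.92% in the same order of diets.

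**Figure D1:**
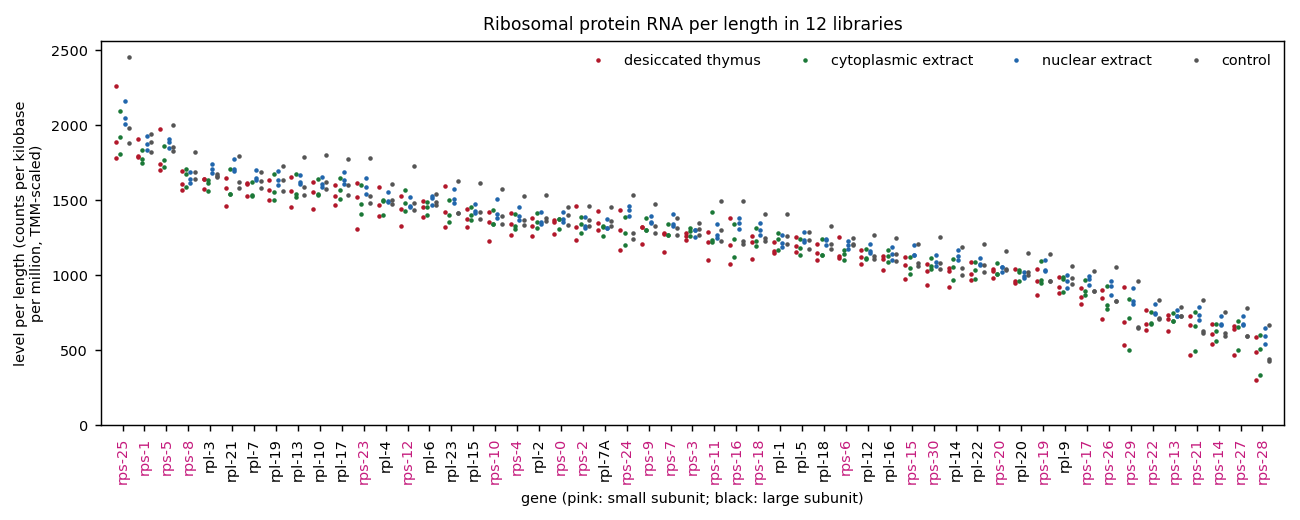
Level per length (CPM per kilobase of exon, TMM-scaled) of the 53 ribosomal protein genes, ordered by their mean, with a point for each of the 12 libraries coloured by diet. The genes run from 2024 for rps-25 to 512 for rps-28, and the points of the 4 diets overlap at most genes.

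As a sum, the 53 genes took a similar share of the counts on every diet, with control libraries overlapping those of each other diet. Their share of library counts was 4.15%, 4.61% and 3.78% with desiccated thymus (mean 4.18% ± 0.416, SD, n = 3), 4.36%, 4.35% and 4.6% with the cytoplasmic extract (4.44% ± 0.142), 4.73%, 4.65% and 4.62% with the nuclear extract (4.67% ± 0.0569), and 4.88%, 4.49% and 4.27% in the control (4.55% ± 0.309). Every desiccated thymus and cytoplasmic extract library lay below every nuclear extract library, with highest shares of 4.61% and 4.6% against a lowest of 4.62%. The lowest library, desiccated thymus replicate 3, is the one with 14.7% ribosomal RNA counts. Without the ribosomal RNA genes in the total, its share was 4.44%. The means were then 4.44% with desiccated thymus, 4.5% with the cytoplasmic extract, 4.69% with the nuclear extract and 4.58% in the control. The libraries of the 3 supplemented diets then overlapped, at 4.18% to 4.69%, 4.38% to 4.71% and 4.65% to 4.76% in the same order.

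**Figure D2:**
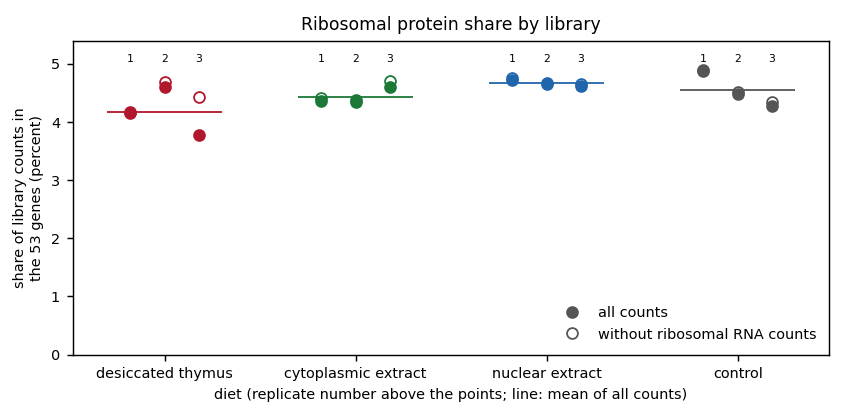
Percent of each library's counts in the 53 ribosomal protein genes, by diet, with filled points for all counts, open points for totals without ribosomal RNA genes and a line at the mean of the filled points. Each supplemented diet overlaps the control, and desiccated thymus replicate 3 (number 3 of the first group) moves most between both totals, at 3.78% and 4.44%.

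No ribosomal protein gene passed the test between diets. Each gene was tested with edgeR's quasi-likelihood test, fitted to all 14610 genes with Benjamini-Hochberg adjustment over them and a threshold of 0.05. In the test for any difference between the 4 diets, 0 of the 53 passed with edgeR, 0 had an unadjusted p under 0.05 and the lowest adjusted p was 0.219, while 7.48% of all tested genes passed and 23.3% had an unadjusted p under 0.05. With DESeq2, 0 of the 53 passed, 2 had an unadjusted p under 0.05 and the lowest adjusted p was 0.0506.

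With desiccated thymus against the control, all 53 fold changes were below 0 (50.3% of all tested genes were), but each was small: the log2 fold changes ran from -0.16 to -0.02, with a median of -0.09 against 0.00 for all genes. With edgeR 0 of 53 passed, where 3.94% of all tested genes did, and with DESeq2 0 passed. At an unadjusted p under 0.05 there were 5 lower genes (9.43%) and 0 higher ones with edgeR, where 6.43% of all tested genes were lower and 10.1% higher, and 12 genes with DESeq2. In 1 of the 53 (1.89%, rpl-3) all desiccated thymus libraries lay below all control libraries, as in 7.97% of all tested genes. The size of the difference depended on single libraries: the median was -0.03 without control replicate 1 and -0.04 without desiccated thymus replicate 1, where 0 genes had an unadjusted p under 0.05 in either case, and it was -0.14 without control replicate 3, where 23 had one and the lowest adjusted p was 0.081. Without desiccated thymus replicate 2, 22 genes had one.

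The smallest p in that comparison belonged to 3 large subunit genes and rps-30. rpl-1 (CELE_Y71F9AL.13), which encodes the protein of the mobile stalk beside the exit site of transfer RNA, had 814, 869 and 826 CPM with desiccated thymus, against 999, 894 and 857 CPM in the control. A single desiccated thymus library reached into the range of the control. The log2 fold change was -0.13 (SE 0.0527, 95% interval -0.24 to -0.02, adjusted p = 0.216 with edgeR). rps-30 (CELE_C26F1.4), whose human counterpart is made as a fusion with a ubiquitin-like protein, had 446, 512 and 488 CPM with desiccated thymus, against 597, 514 and 496 CPM in the control, so the ranges overlapped. Its log2 fold change was -0.15 (SE 0.0658, adjusted p = 0.265 with edgeR). rpl-2, a core protein close to the catalytic centre, and rpl-10, which is needed late in large subunit maturation in yeast, each had a log2 fold change of -0.11, with adjusted p of 0.281 and 0.282 with edgeR.

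With the cytoplasmic extract against the control the picture was similar. All 53 log2 fold changes were below 0, where 49.6% of all tested genes were, with a range of -0.14 to -0.02 and a median of -0.07. With edgeR 0 of 53 passed (0.65% of all tested genes did), 1 was lower at an unadjusted p under 0.05 (1.89%, against 4.73% of all tested genes), and DESeq2 called 0, with 5 at an unadjusted p under 0.05. Without control replicate 1 the median was 0.00. As both comparisons use the same 3 control libraries, the shared sign in them is not a repeat observation.

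The gene of smallest p was rps-6 (CELE_Y71A12B.1), the small subunit protein phosphorylated by S6 kinase in mammals. It had 897, 932 and 956 CPM with the cytoplasmic extract, against 1018, 987 and 981 CPM in the control. All 3 cytoplasmic extract libraries were below all 3 control libraries, a separation in this direction found in 3 of the 53 genes (5.66%: rps-6, rpl-3 and rpl-7A) and in 7.78% of all tested genes. The log2 fold change was -0.10 (SE 0.0436, 95% interval -0.19 to -0.01, adjusted p = 0.36 with edgeR). rps-1, rpl-7A and rpl-7 followed, with log2 fold changes of -0.08, -0.08 and -0.07 and adjusted p of 0.429, 0.441 and 0.488 with edgeR.

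With the nuclear extract against the control, 13.3% of all tested genes passed, the highest share of the 6 comparisons, and 0 of the 53 did with edgeR. Here 0 also had an unadjusted p under 0.05 in either direction, where 16.9% of all tested genes were higher and 13.2% lower, and DESeq2 gave 0 for both. The log2 fold changes ran from -0.08 to 0.22 with a median of 0.00 (0.02 for all genes), with 25 above and 28 below 0 (52.3% of all tested genes were above). The genes of smallest p were rpl-20, rpl-1, rps-8 and rpl-3, with log2 fold changes of -0.08, -0.08, -0.06 and 0.04 and adjusted p of 0.317, 0.346, 0.384 and 0.455 with edgeR.

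rpl-3 (CELE_F13B10.2; III:3867854-3869587, plus strand) is the longest gene of the list at 1456 exonic bases, and its yeast counterpart reaches towards the catalytic centre. It had 2537, 2488 and 2446 CPM with the nuclear extract, against 2417, 2438 and 2410 CPM in the control. It was the only one of the 53 (1.89%) whose nuclear extract libraries all lay above the control, as did those of 17.8% of all tested genes. Its 95% interval of -0.03 to 0.11 was among the narrowest. Under a correction for transcript length that was added after the data were seen, its log2 fold change was 0.12 with an adjusted p of 0.029 with edgeR, the one call among the 53 in that setting.

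Between the supplemented diets, 0 of 53 passed in each of the 3 comparisons with edgeR and with DESeq2. With the nuclear extract against the cytoplasmic extract (1.57% of all tested genes called), 47 log2 fold changes were above 0 (51.5% of all tested genes were) and the median was 0.07. At an unadjusted p under 0.05 with edgeR 2 genes were higher, rpl-3 and rpl-7 (3.77%, against 8.63% of all tested genes). rpl-3 had 2537, 2488 and 2446 CPM with the nuclear extract, against 2277, 2349 and 2377 CPM with the cytoplasmic extract. These groups did not overlap, as in 6 of the 53 genes (11.3%) and 11.9% of all tested genes. The log2 fold change was 0.09 (SE 0.0341, 95% interval 0.02 to 0.17, adjusted p = 0.216 with edgeR). rpl-7, rps-15 and rpl-21 had log2 fold changes of 0.09, 0.13 and 0.11, with adjusted p of 0.299, 0.361 and 0.389 with edgeR. DESeq2 had 3 genes at an unadjusted p under 0.05 and a lowest adjusted p of 0.0636.

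With desiccated thymus against the nuclear extract (0.144% of all tested genes called), 52 of the 53 log2 fold changes were below 0 (53.3% of all tested genes were) and the median was -0.07. At an unadjusted p under 0.05, 6 genes were lower with edgeR (11.3%, against 7.04% of all tested genes) and 6 passed with DESeq2. rps-7 (CELE_ZC434.2), which encodes a small subunit protein, had 815, 903 and 898 CPM with desiccated thymus, against 992, 946 and 937 CPM with the nuclear extract. The groups did not overlap. The log2 fold change was -0.14 (SE 0.0453, 95% interval -0.23 to -0.04, adjusted p = 0.23 with edgeR). Separation in this direction was found in 11 of the 53 genes (20.8%) and in 11.5% of all tested genes; the 11 are not separate observations, because the genes deviated together from library to library, and the count of 6 at an unadjusted p under 0.05 was 0 when desiccated thymus library 1 was left out, 20 when library 2 of that diet was, and 29 with libraries scaled by their totals alone (lowest adjusted p 0.098). Those totals include the 14.7% ribosomal RNA counts of desiccated thymus replicate 3, against 0.393% to 0.71% in the nuclear extract libraries. rps-17, rpl-14 and rpl-21 had log2 fold changes of -0.17, -0.18 and -0.14, with adjusted p of 0.27, 0.31 and 0.319 with edgeR.

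With desiccated thymus against the cytoplasmic extract, 1.05% of all tested genes and 0 of the 53 passed, 0 had an unadjusted p under 0.05 with edgeR (5.65% of all tested genes were higher and 3.74% lower at that level) or with DESeq2. The median log2 fold change was -0.03, with 40 of the 53 below 0, as were 51.2% of all tested genes. The smallest p values were those of rps-7, rpl-7A, rps-17 and rpl-1, with log2 fold changes of -0.07, 0.06, -0.08 and -0.06 and adjusted p of 0.788, 0.8, 0.802 and 0.85 with edgeR.

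A p above the threshold does not show that levels were equal, so the intervals give what the data allow. For the comparisons with the control, the 95% intervals of the log2 fold changes had a median half-width of 0.116, and 49 to 50 of the 53 lay within 0.5 of 0 on both sides. The widest was that of rps-28, with -0.86 to 0.54 for desiccated thymus, -0.78 to 0.62 for the cytoplasmic extract and -0.48 to 0.92 for the nuclear extract.

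**Figure D3:**
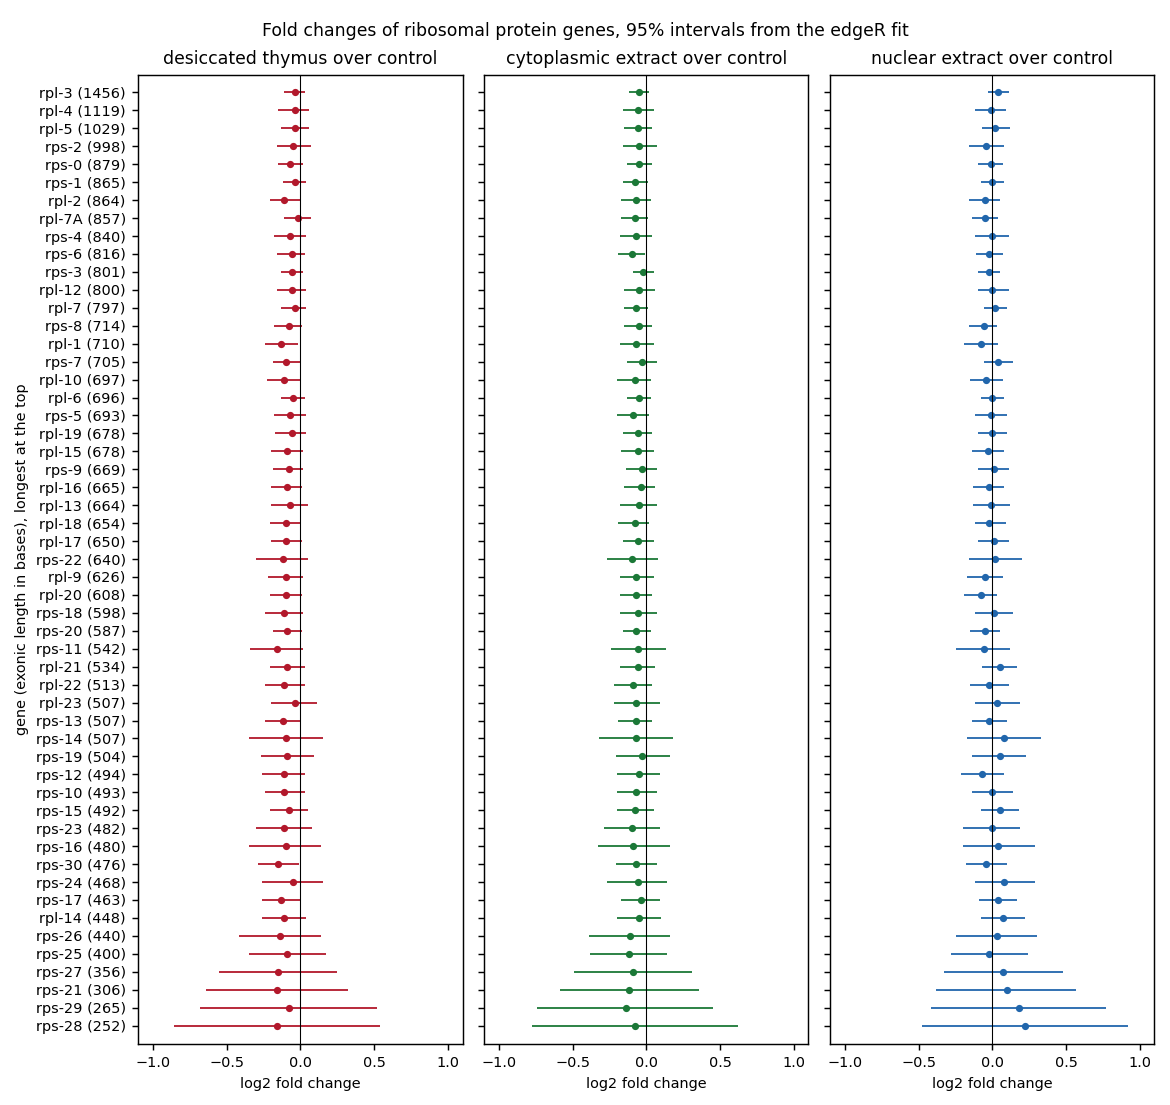
Log2 fold change (point) and 95% interval (line) from the edgeR fit for each ribosomal protein gene, in panels for desiccated thymus, for the cytoplasmic and for the nuclear extract, each over the control, with genes ordered by exonic length and the longest at the top. All 53 points lie below 0 in the first and second panels, the points of the third lie on both sides, and the intervals widen towards the 4 shortest genes at the bottom.

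Libraries of the same diet differed, and the 53 genes differed together. Taking each gene's deviation from its own mean over the 12 libraries (log2 CPM), 87.9% of the squared deviation lay on 1 principal axis, on which all 53 genes had the same sign. In control replicate 1 all 53 genes were above their mean, by a median of 0.16, and in nuclear extract replicate 1 all 53 were above it by a median of 0.08. In desiccated thymus replicate 1 all 53 were below, with a median of -0.14. All genes over 20 CPM had medians of 0.07, 0.0 and 0.01 in these libraries, in the same order. Genes outside the list over 600 and up to 800 bases long had 0.168, 0.035 and -0.051. The share of all genes above or below their mean was not counted.

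**Figure D4:**
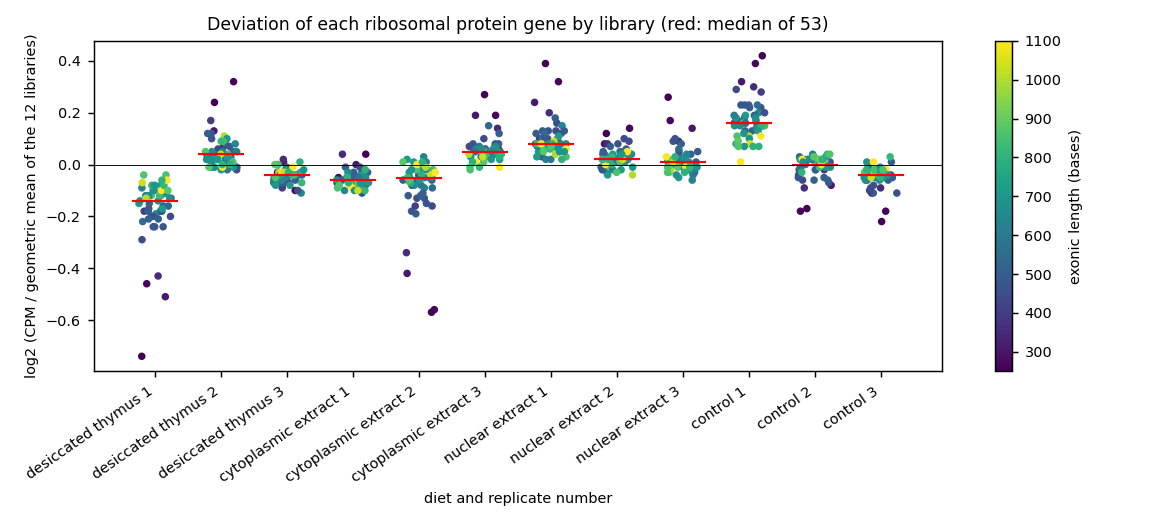
Deviation of each of the 53 genes from its mean over 12 libraries (log2 CPM), by library, coloured by exonic length, with the median in red. Control replicate 1 lies above 0 for all 53 genes and desiccated thymus replicate 1 below 0 for all 53, and the shortest genes (dark) lie farthest out, down to -0.74 for rps-28.

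The size of these deviations followed transcript length. The range over the 12 libraries was 0.13 to 1.15 on the log2 scale, with a median of 0.29, and across the 53 genes it had a Spearman's rho with exonic length of -0.875 (a description, as all genes share the libraries). The 4 genes under 400 exonic bases had the widest ranges: rps-28 (252 bases) with 1.15, rps-29 (265 bases) with 0.95, rps-21 (306 bases) with 0.83 and rps-27 (356 bases) with 0.73. The proteins of rps-27 and rps-29 are zinc-binding small subunit proteins. The narrowest range was that of rps-3, a protein at the entry of the messenger RNA channel, with 0.13 over 801 bases.

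rps-29 shows the pattern within the diets. It had 142, 244 and 183 CPM with desiccated thymus, 189, 133 and 222 CPM with the cytoplasmic extract, 243, 214 and 220 CPM with the nuclear extract, and 255, 173 and 172 CPM in the control. The highest and lowest libraries of the desiccated thymus, cytoplasmic extract and control diets lay farther apart than the means of any pair of diets.

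Other short genes moved with them. Among the genes over 20 CPM outside the list, the 76 under 400 bases had a median deviation of -0.36 in desiccated thymus replicate 1, -0.33 in cytoplasmic extract replicate 2, 0.22 in nuclear extract replicate 1 and 0.26 in control replicate 1. The 4 short ribosomal protein genes had medians of -0.48, -0.49, 0.28 and 0.35 in the same libraries. The 12 ribosomal protein genes of 800 bases or more had -0.09, -0.03, 0.06 and 0.10, and the 3038 other genes of 800 to 2000 bases had 0.01, 0.01, -0.01 and 0.10. Fitting each library's trend with length as an offset, a setting added after the data were seen, gave median log2 fold changes against the control of 0.00 for desiccated thymus, 0.00 for the cytoplasmic extract and 0.05 for the nuclear extract. The cause of the length trend was not tested.

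**Figure D5:**
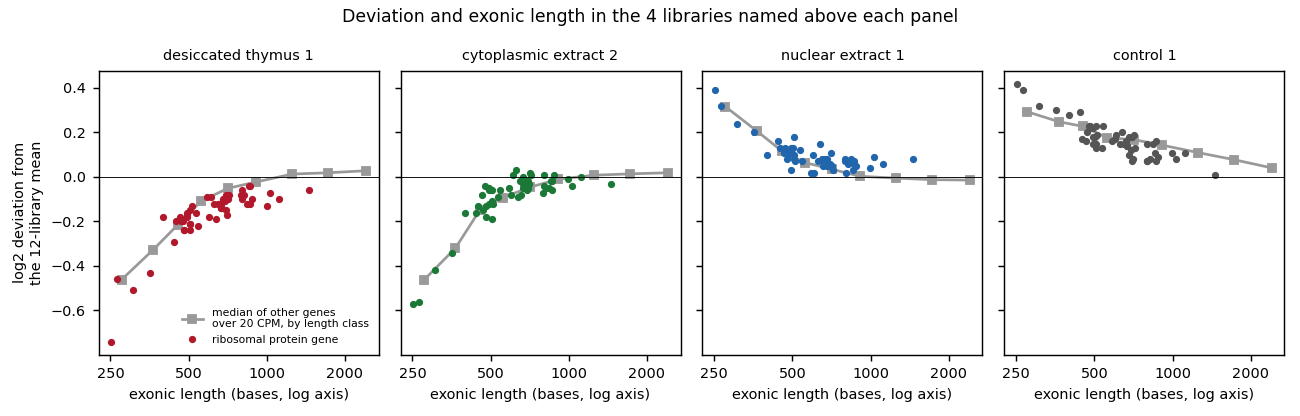
Deviation from the 12-library mean (log2 CPM) against exonic length in bases (log axis) in 4 libraries, with coloured points for the 53 ribosomal protein genes and grey squares for the median of other genes over 20 CPM in classes of length. Short genes of both kinds lie below 0 in desiccated thymus replicate 1 and cytoplasmic extract replicate 2, and above it in nuclear extract replicate 1 and control replicate 1.

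In the genome (WBcel235) the 53 genes are small and spread over the autosomes, with 15 each on chromosomes I, III and IV, 4 each on II and V, and 0 on X, which holds 14.3% of all tested genes. They have 2 to 5 exons with a median of 3, and a median exonic length of 640 bases, against 1359 for all tested genes. Of the 53, 9 lie within 100000 bases of another, the closest being rps-14 and rps-21 on chromosome III at 9590 bases. Bases shared with a different annotated gene were found in 9 of the 53, with rpl-14 in both sets. Over 5% of the exonic bases were shared in 3: rps-20 (18.7%, with the microRNA gene mir-354), rps-18 (8.4%) and rpl-7A (7.8%). How reads in those stretches were assigned is not stated.

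Of all tested genes, 8.62% rose and 4.72% fell with the nuclear extract against the control. Of 29 tested ribosomal protein genes outside the 53, 2 rose against the control and 0 fell, a share near that of all genes, with a median log2 fold change of 0.05. rpl-11.2, on chromosome X, encodes a protein that in yeast binds the smallest ribosomal RNA of the large subunit. It had 117, 127 and 120 CPM with the nuclear extract, against 97.3, 101 and 102 CPM in the control. The groups did not overlap, and the log2 fold change was 0.27 (SE 0.05, adjusted p = 0.00316 with edgeR). rpl-25.1, also on X, had 47.2, 56.6 and 56.5 CPM with the nuclear extract, against 41.4, 42.5 and 43.4 CPM in the control (log2 fold change 0.33, SE 0.0815, adjusted p = 0.0161 with edgeR); without nuclear extract replicate 2 or 3 its adjusted p was 0.0745 or 0.0773. With desiccated thymus against the nuclear extract, rpl-11.2 fell by 0.30 on the log2 scale (adjusted p = 0.0256 with edgeR), a call lost without desiccated thymus replicate 1 or 3 or nuclear extract replicate 2 or 3 (adjusted p = 0.174, 0.124, 0.165 and 0.0713).

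Among genes that build or serve the ribosome, calls were likewise found with the nuclear extract against the control. Of 36 tested genes in the list for ribosome assembly and RNA polymerase I, 4 fell (4.72% of all tested genes did) and 0 rose (8.62%). They were pro-1 (-0.20, adjusted p = 0.0193), wdr-12 (-0.18, 0.012), rpac-40 (-0.17, 0.033) and pro-2 (-0.13, 0.0262). The first value is the log2 fold change and the second the adjusted p with edgeR. The list was matched by name and also holds gar-1, in C. elegans an acetylcholine receptor gene. wdr-12 had 77.8, 75.6 and 78.1 CPM with the nuclear extract, against 90.6, 85.1 and 86.5 CPM in the control, without overlap; its mammalian counterpart works in large subunit maturation. All 4 calls were lost when libraries were scaled by their totals alone and with the length offset. With the compared groups alone pro-1, rpac-40 and pro-2 were lost (0.0609, 0.0664 and 0.0691), and pro-2 also without the filter on low counts (0.0729). By single libraries, wdr-12 was lost without nuclear extract replicate 2 (0.0579), pro-1 without control replicate 1 or nuclear extract replicate 1 or 2 (0.0556 to 0.0768), pro-2 without control replicate 2 or any nuclear extract library (0.0505 to 0.103), and rpac-40 without any library but control replicate 3 (0.0669 to 0.106). The median over the 36 was a log2 fold change of -0.07.

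Of 42 tested genes in the list of translation factors, 2 rose and 3 fell, against 8.62% and 4.72% of all tested genes. That list also holds etr-1, an RNA-binding protein gene that is not a translation factor. iff-2, a translation factor that carries the modified amino acid hypusine, had 112, 118 and 121 CPM with the nuclear extract, against 81.9, 81.8 and 89.9 CPM in the control. The log2 fold change was 0.47 (SE 0.0701, adjusted p = 0.000863 with edgeR), and it passed under each leave-one-out setting, with adjusted p of 0.00128 to 0.0077. eef-1A.2, an elongation factor that brings transfer RNA to the ribosome, rose by a log2 fold change of 0.26 (adjusted p = 0.0161 with edgeR), and was lost without control replicate 2 (0.0502) or nuclear extract replicate 3 (0.0617). eif-6, which in yeast and mammals keeps large subunits from joining small ones, fell by 0.16 on the log2 scale (adjusted p = 0.0335 with edgeR; lost without nuclear extract replicate 2 or 3 or control replicate 1 or 2, 0.0645 to 0.154), and eif-2Bbeta fell by 0.18 (adjusted p = 0.0441). The call of eif-2Bbeta was lost without any single one of the 6 libraries. With library totals alone eif-6 and eif-2Bbeta were lost (0.408 and 0.391), as with the length offset (0.283 and 0.267). With the compared groups alone eef-1A.2, eif-6 and eif-2Bbeta were lost (0.0547, 0.078 and 0.0834), and eif-2Bbeta also without the filter on low counts (0.0708).

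In the TOR pathway list, 2 of 12 fell with the nuclear extract, where 4.72% of all tested genes fell: ragc-1, a GTPase that carries amino acid signals to the kinase (log2 fold change -0.19, adjusted p = 0.0178 with edgeR), and rict-1, a subunit of the second TOR complex (-0.17, adjusted p = 0.015). Both were lost without nuclear extract replicate 2 (0.0692 for ragc-1, 0.0658 for rict-1) or 3 (0.0639 and 0.0661), and ragc-1 also without control replicate 1 (0.0631). With library totals alone both were lost (0.288 each), and ragc-1 also with the length offset (0.111). Of 71 mitochondrial ribosomal protein genes, mrps-28 fell (-0.34, adjusted p = 0.021 with edgeR). Its adjusted p was 0.0778 without control replicate 1, and 0.0869 or 0.0533 without nuclear extract replicate 2 or 3. It was 0.0501 with library totals alone and 0.0527 with the compared groups alone. In these 5 lists, 0 genes passed with desiccated thymus or the cytoplasmic extract against the control.

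Tissue markers moved in the same comparison. With the nuclear extract against the control, 8 of 18 intestine markers rose and 1 fell, 5 of 14 hypodermis markers rose, 6 of 20 neuron markers rose and 1 fell, and 9 of 28 germline and oocyte markers fell and 1 rose, while 0 of 19 muscle and 0 of 13 sperm markers passed. Of all tested genes 8.62% rose and 4.72% fell there. The summed intestine markers had 54220 to 57574 CPM with the nuclear extract and 51328 to 66949 in the control. Summed hypodermis markers had 436 to 569 and 349 to 462 CPM, and neuron markers 526 to 574 and 478 to 554. These ranges overlapped, unlike those of the germline markers given above. The passing genes of largest change were low in the control: pgp-1 (intestine) with 4.11, 3.66 and 3.98 CPM, rol-6 (hypodermis) with 0.0399, 0.626 and 0.42. With desiccated thymus against the control, 6 of 18 intestine markers rose, where 3.0% of all tested genes did. Their sum with desiccated thymus, 56642 to 61873 CPM, lay within the range of the control. The part of the tissue markers in the values above was not tested.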

How the data were processed

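Messenger RNA of whole worms was sequenced in 12 libraries, 3 per diet, as paired reads of 150 bases. Per gene, the authors deposited raw read counts as whole numbers; the submitters' processing notes name Trimmomatic, STAR, featureCounts and DESeq2, without versions or roles. The strand setting and the rule for multiply mapped reads are not given in the sources used here. The build, WBcel235, was read from the chromosome accessions in the table. Columns were tied to samples through diet initials and replicate numbers in their names, which match a single title each; this is an inference from names.

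Of 46929 genes, 46035 were matched to a WormBase name or ID in Ensembl release 115 of the same build, and 20979 had no count. Genes were kept by filterByExpr of edgeR 4.0.16 (R 4.3.3) with a minimum count of 10 by group. One quasi-likelihood model with TMM factors, a mean per diet and a robust prior was fitted to all 12 libraries (biological coefficient of variation 12.7%, 8 residual degrees of freedom). Every adjusted p is from it, two-sided, unless another tool, an alternative setting or a left-out library is named. Each of those was a separate fit. DESeq2 1.42.0 was the alternative tool. CPM use TMM-scaled totals, and levels per length divide them by exonic length. With 3 libraries against 3, exact permutation gives no p below 0.1. The model code was tested on simulated data.

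The genes and the other lists were chosen with earlier results of these data known, so no test of a list as a whole was made, and lists are given as counts and medians. All 53 genes could be named; those of smallest p were named in each comparison where fewer than 4 passed, with the 5 highest and 5 lowest per length and up to 4 passing genes of each other list. Of 316 list names, 9 had no match. Replicate pairs differed by more than sampling noise. Chi-square per degree of freedom was 288 and 182 for desiccated thymus replicate 3 with replicates 1 and 2, and 5.48 to 28.1 for the other pairs. All libraries were kept.

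Deviations of same-numbered libraries from their group means correlated across genes at 0.149, 0.471 and 0.199 for desiccated thymus and the control, 0.383, 0.669 and 0.33 for the nuclear extract and the control, and 0.254, 0.473 and 0.197 for desiccated thymus and the nuclear extract, so these were treated as pairs in an alternative with the replicate number as a block. That block covered all 12 libraries, those of the cytoplasmic extract included, although pairs with the cytoplasmic extract did not all correlate. In replicate 1 the values were -0.358 with the control, -0.353 with the nuclear extract and -0.242 with desiccated thymus. Those of replicates 2 and 3 were 0.249 to 0.458. Across the listed ribosomal protein genes alone, the correlations were -0.893, -0.891 and -0.417 for desiccated thymus and the control. For desiccated thymus and the nuclear extract they were -0.833, -0.795 and 0.0528. For the nuclear extract and the control they were 0.792, 0.687 and -0.147. For the cytoplasmic extract and the control they were 0.755, 0.891 and -0.847. For the nuclear and the cytoplasmic extract they were 0.587, 0.771 and 0.123. For desiccated thymus and the cytoplasmic extract they were -0.837, -0.892 and 0.527. Only the nuclear and the cytoplasmic extract had all 3 above 0, so the ground for pairing did not hold throughout for the listed genes. Other alternatives were other scalings, no filter, ribosomal RNA or ribosomal protein genes left out of the scaling, each library left out, the compared groups alone, a length offset, and 3 libraries left out together.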

Additional observations from a re-analysis of the deposited data

How the results depend on the processing

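The count of 0 ribosomal protein genes passing held in each comparison that could be made under 20 of 22 alternative settings, DESeq2 and each single left-out library included. The exceptions are the length offset and the omission of 3 libraries, both added after the data were seen. With the length offset, 1 gene was higher with the nuclear extract than in the control (rpl-3). Without control replicate 1, desiccated thymus replicate 1 and cytoplasmic extract replicate 2, 5 were (rps-27, rps-21, rps-14, rps-24 and rpl-14, with adjusted p of 0.0103 to 0.0491 with edgeR), and 1 differed between the 4 diets (rps-27, adjusted p = 0.0445). Those 3 libraries were picked because these very genes deviated most in them, which selects libraries by the outcome, and the omission takes away the highest control library, so its calls are no finding. With library totals alone the median log2 fold change of desiccated thymus against the nuclear extract was -0.16, and rpl-7A reversed to -0.01 for desiccated thymus against the cytoplasmic extract. These totals include the 14.7% ribosomal RNA counts of desiccated thymus replicate 3. The cause was not tested.

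Leaving out single libraries, the median log2 fold change ranged over -0.14 to -0.03 for desiccated thymus, -0.10 to 0.00 for the cytoplasmic extract and -0.03 to 0.05 for the nuclear extract against the control, 0.04 to 0.10 for the nuclear against the cytoplasmic extract, -0.07 to 0.02 for desiccated thymus against the cytoplasmic and -0.12 to -0.04 against the nuclear extract, with 0 genes passing. At an unadjusted p under 0.05 there were in the same order 0 to 23, 0 to 7, 0 to 2, 0 to 9, 0 and 0 to 20 of the 53 genes. With the length offset there were 10 for the nuclear extract against the control and 11 against the cytoplasmic extract. The share of counts ranged over 3.96% to 4.38% with desiccated thymus, 4.36% to 4.48% with the cytoplasmic extract, 4.63% to 4.69% with the nuclear extract and 4.38% to 4.69% in the control. With the replicate block the median stayed -0.09 for desiccated thymus against the control, and the block changed no call of a ribosomal protein gene; over all genes it gave 41 calls in place of 21 for desiccated thymus against the nuclear extract.

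Counts over all genes moved more. Leaving out single libraries gave 300 to 513 calls for desiccated thymus, 30 to 147 for the cytoplasmic extract and 851 to 2137 for the nuclear extract against the control, 87 to 156 for the nuclear against the cytoplasmic extract, and for desiccated thymus 26 to 79 against the cytoplasmic and 5 to 14 against the nuclear extract. Against the control, DESeq2 called 871 genes for desiccated thymus (edgeR 575), 342 for the cytoplasmic extract (95) and 2544 for the nuclear extract (1948), and 258 for desiccated thymus against the nuclear extract (21), 343 against the cytoplasmic extract (154), 474 for the nuclear against the cytoplasmic extract (230) and 1941 between the 4 diets (1093). Without the filter these were 663, 244, 1873, 150, 274, 357 and 1481 in the same order. With the compared groups alone they were 321, 44, 1097, 235, 270 and 335. With library totals alone 113 genes passed for desiccated thymus against the nuclear extract. With the 3 libraries left out, 372 passed for desiccated thymus and 1304 for the nuclear extract against the control, and 50 and 149 for desiccated thymus and the nuclear extract against the cytoplasmic extract. The raw counts of the 53 genes ran from 2512 to 78236 per library; how far depth limits the calls was not tested.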

Other observations

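Of 6 pairs of gene copies looked at after values were known, 4 had a less abundant copy that rose with the nuclear extract against the control beside a more abundant one that did not pass the test, and 2 (rpl-41.1 and rpl-41.2, eef-1B.1 and eef-1B.2) had no copy that passed. Reads of near-identical copies may have been shared between them in counting. rpl-11.2 rose (log2 fold change 0.27), and rpl-11.1 had 881, 811 and 800 CPM with the nuclear extract, against 931, 830 and 781 CPM in the control (log2 fold change -0.03, adjusted p = 0.808 with edgeR). rpl-25.1 rose (0.33), and rpl-25.2 had 541, 506 and 493 CPM with the nuclear extract, against 595, 520 and 502 CPM in the control (log2 fold change -0.07). The same held for iff-2 (0.47) beside iff-1 (-0.04), and for eef-1A.2 (0.26) beside eef-1A.1 (-0.05). The difference between the copies was not tested.

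Levels per length with the nuclear extract and in the control were 1270 and 1295 for rpl-11.1, and 165 and 137 for rpl-11.2. For the other ribosomal pair they were 1037 and 1090 for rpl-25.2, and 108 and 85.9 for rpl-25.1.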
